A study of Homo sapiens with 8 samples.

Results

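The genes described here are 10 epithelial and mesenchymal identity genes, KRT7, KRT8, KRT18, KRT19, CLDN4, EPCAM, CDH1, CDH2, VIM and ZEB1, in MIA PaCa-2 cells, a human pancreatic cancer cell line. The members were taken by name, as every probe set whose only annotated gene symbol was one of the 10. That gave 31 probe sets of 10 genes, out of 49395 probe sets and 18132 genes on the array. One group of 4 samples received DMSO, the vehicle, and the other 4 received pachymic acid (PA), a triterpenoid of the fungus Poria cocos, at 30 μM in that vehicle. Both groups were harvested after 24 h, and total RNA was hybridised to Human PrimeView arrays, 1 array per sample. The series design text calls the control untreated, whereas the sample labels give DMSO. All 8 arrays come from a single tumour cell line, and the sources do not say whether the quadruplicates were separate passages or days, so the p-values below measure the spread between these samples only.

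Epithelial cells are held together by tight junctions, adherens junctions and desmosomes and carry a cytoskeleton of paired type I and type II keratins. In the epithelial-mesenchymal transition, cells lose the adhesion proteins CDH1 (E-cadherin), EPCAM and the claudins, gain CDH2 (N-cadherin) and vimentin, and express repressors such as ZEB1, which binds E-box sequences in the promoters of epithelial genes. KRT7, KRT8, KRT18 and KRT19 are keratins of simple epithelia, and in the pancreas KRT7 and KRT19 are marks of the ducts.

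The differences of these genes between PA and DMSO were small. Of the 31 probe sets, 28 had a group mean of at least 4 on the log2 scale in the higher group and were tested by limma, with Benjamini-Hochberg adjustment over all 38748 probe sets tested. Calls needed an adjusted p under 0.05, whatever the fold. KRT18 and KRT8 each had 1 probe set that rose, by 0.185 and 0.1775 on the log2 scale (1.14-fold and 1.13-fold), and CLDN4 had 1 that fell by 0.31 (1.24-fold). The 2 raised of 28 stand beside 8.0% raised among all probe sets tested, and the 1 lowered stands beside 9.07%. KRT8 and ZEB1 hold 8 and 7 of the 28. Counted at the brightest probe set of each gene, 2 of the 10 genes rose (KRT8 and KRT18) and 1 fell (CLDN4). Beside them stand 8.23% of all 15226 genes tested that rose and 10.5% that fell. When each array was centred on its own median, the calls over all probe sets moved from 3098 raised and 3516 lowered to 2382 raised and 4154 lowered, that is from 46.8% to 36.4% raised. No member changed by 1.5-fold or more in this fit, against 1.13% of all probe sets that were called and reached that size.

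The 95% confidence interval of the change lay inside 1.5-fold in either direction for 25 of the 28 member probe sets, or 89.3%, and for 94.0% of all probe sets tested. It lay inside 1.25-fold for 19 members, or 67.9%, and for 58.7% of all. The median change was 0.0525 over the members and 0.0175 over all probe sets tested. The median size of the change, without its sign, was 0.1275 and 0.1125. All 4 PA arrays lay above all 4 DMSO arrays in 6 member probe sets, or 21.4%, against 11.1% of all probe sets tested. They were KRT8 probe sets 11752634 and 11755287, KRT18 probe sets 11754941 and 11757905, ZEB1 probe set 11721546 and CDH2 probe set 11726615. Probe sets of the same gene share its transcripts and are not replicates. The CDH2 probe set reached the signal limit only with PA. All 4 PA arrays lay below in 2 member probe sets, 11716780 and 11758355, both of CLDN4, or 7.14%, against 12.2%.

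**Figure D1:**
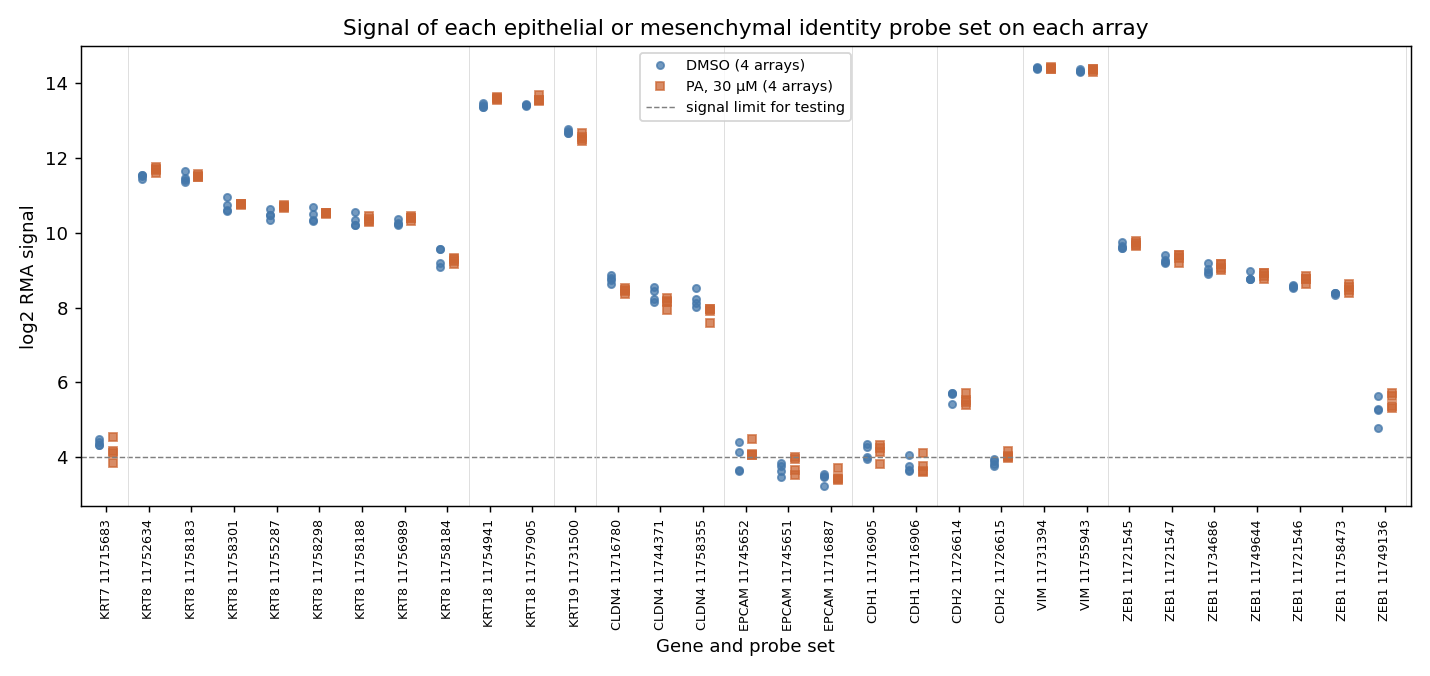
Signal of the 31 probe sets on the 8 arrays, on the log2 RMA scale, grouped by gene, with DMSO arrays as circles and PA arrays as squares. The dashed line is the signal limit of 4. VIM, KRT18 and KRT19 lie above 12, and KRT7, EPCAM and CDH1 lie between 3.25 and 4.55 on every array.

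The levels set the members apart whatever the group, and the ranges given here run over all 8 arrays, DMSO and PA. Signals of different probe sets depend on their probes and are not ranked as amounts of RNA, so each is set only against the signal limit and the control probes. VIM read 14.28 to 14.42 over its 2 probe sets, near the highest value of any array, 14.58 to 14.62, where little room is left to show a rise. KRT18 read 13.35 to 13.66, KRT19 read 12.44 to 12.76 and KRT8 read 9.08 to 11.76. At the other end were the adhesion proteins EPCAM and CDH1 and the keratin KRT7. EPCAM read 3.25 to 4.49, CDH1 read 3.60 to 4.35 and KRT7 read 3.84 to 4.55, all close to the limit of 4. Averaged on each array, background probe sets rich in G and C were at 6.59 to 7.12 and the other background probe sets at 3.05 to 3.17. A signal near 4 therefore cannot be told from background for every probe composition. Among the epithelial markers, KRT8, KRT18, KRT19 and CLDN4 (7.59 to 8.88) were well above the limit, whereas KRT7 and the defining adhesion markers EPCAM and CDH1 were at it.

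KRT18 and KRT8 form the keratin filament pair of simple epithelia, KRT18 as the type I and KRT8 as the type II partner, and the genes neighbour each other in the reference annotation. KRT18 probe set 11754941 read 13.35, 13.36, 13.45 and 13.39 on the DMSO arrays and 13.61, 13.56, 13.58 and 13.54 on the PA arrays. Every PA array was above every DMSO array, and the change was 0.185 ± 0.0455 (SE, n = 4 per group; limma adjusted p = 0.0238). The second KRT18 probe set, 11757905, read 13.40, 13.37, 13.43 and 13.39 with DMSO and 13.66, 13.53, 13.51 and 13.53 with PA. It moved by 0.16 without overlap, and its limma adjusted p of 0.055 missed the threshold.

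KRT8 had 8 probe sets, which did not move as one. Probe set 11752634, the brightest, read 11.51, 11.43, 11.53 and 11.53 with DMSO and 11.76, 11.66, 11.60 and 11.69 with PA. The groups did not overlap, and the change was 0.1775 ± 0.0517 (SE, n = 4 per group; limma adjusted p = 0.044). Probe set 11755287 read 10.64, 10.33, 10.47 and 10.46 with DMSO and 10.70, 10.65, 10.69 and 10.73 with PA. These groups did not overlap either, with a change of 0.2175 and an adjusted p of 0.0513 in limma. The other 6 differed by -0.0925 to 0.115 with adjusted p-values of 0.181 to 0.816, and the mean over all 8 differed by 0.0744 (limma adjusted p = 0.409). The SD of the DMSO arrays ran from 0.0737 (11756989) to 0.252 (11758184) in these 6. It was 0.0476 in 11752634 and 0.127 in 11755287. DMSO 1 was the highest of the 4 DMSO arrays in 7 of the 8 KRT8 probe sets, and DMSO 1 and DMSO 2 both lay above DMSO 3 and DMSO 4 in 5 of the 8.

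All 8 KRT8 and both KRT18 probe sets carry the suffix by which the manufacturer marks probes that can match other transcripts. The reference annotation lists 52 pseudogenes of KRT8 and 68 of KRT18, so these values may hold signal of related sequences. The keratin calls also rested on the number of arrays. Leaving out 1 array at a time, KRT18 probe set 11754941 was called in 3 of 8 fits. It missed without DMSO 1, DMSO 2, PA 1, PA 2 or PA 3, with limma adjusted p-values of 0.061, 0.061, 0.0542, 0.0572 and 0.0575. KRT8 probe set 11752634 was called in 1 of 8 fits, without PA 3, and the adjusted p of the other 7 ran from 0.0578 to 0.109.

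KRT19, a type I keratin of ducts and the smallest of the keratins, differed in the other direction. It read 12.65, 12.72, 12.76 and 12.66 with DMSO and 12.66, 12.44, 12.49 and 12.54 with PA, so that PA 1 lay within the DMSO range and the other 3 lay below it. The difference was -0.165, with a 95% interval of -0.2972 to -0.0328 and a limma adjusted p of 0.0847, which missed the threshold. KRT19 passed after centring (-0.1925, adjusted p = 0.0438), with an intensity trend (adjusted p = 0.0113) and without PA 1 (-0.2075, adjusted p = 0.0391). KRT7, the type II keratin of ducts, read 4.49, 4.32, 4.33 and 4.40 with DMSO and 4.12, 3.84, 4.17 and 4.55 with PA. Its difference of -0.215 had an adjusted p of 0.277 in limma, and PA 4 was the highest of the 8 arrays. Without PA 4 the KRT7 difference was -0.3417 (adjusted p = 0.0434), and without PA 2 it was -0.105 (adjusted p = 0.549).

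**Figure D2:**
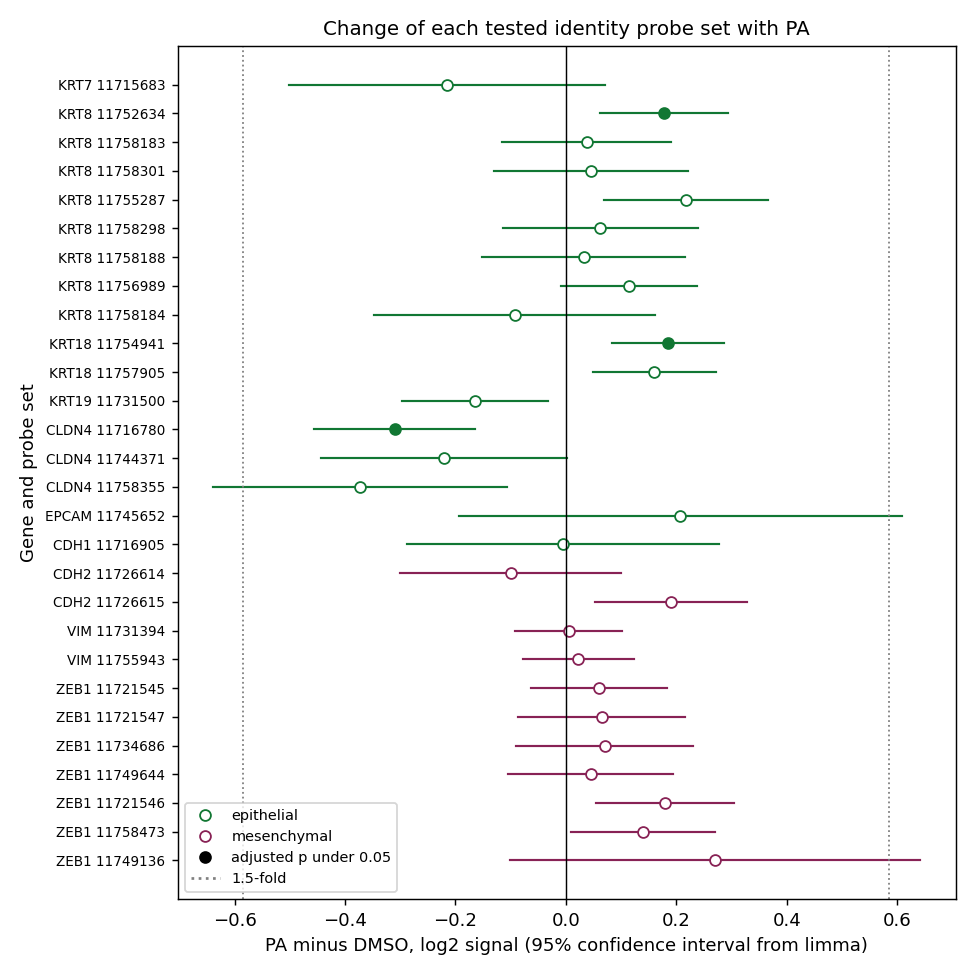
Change of the 28 tested probe sets, PA minus DMSO in log2 signal, with the 95% confidence interval from limma, epithelial genes in green and mesenchymal genes in purple. Filled points have an adjusted p under 0.05, which are 1 probe set each of KRT8, KRT18 and CLDN4, and the dotted lines mark 1.5-fold.

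CLDN4, a claudin of the tight junction, had the only member probe set that fell. Probe set 11716780 read 8.88, 8.73, 8.79 and 8.63 with DMSO and 8.35, 8.44, 8.52 and 8.48 with PA. The groups did not overlap, and CLDN4 fell by 0.31 ± 0.0649 (SE, n = 4 per group; limma adjusted p = 0.0128). The call held in 8 of 8 fits that left out 1 array, with adjusted p-values of 0.0111 to 0.0373. Probe set 11758355 read 8.52, 8.23, 8.11 and 8.02 with DMSO and 7.59, 7.95, 7.90 and 7.95 with PA, again without overlap. Its difference of -0.3725 was the lowest of any member, and DMSO 1 and PA 1 carried the extremes (limma adjusted p = 0.0596). Without DMSO 4 it passed, at -0.4392 and an adjusted p of 0.0466. Probe set 11744371 read 8.43, 8.24, 8.56 and 8.16 with DMSO and 7.94, 8.14, 8.17 and 8.26 with PA. These groups overlapped, and the difference was -0.22 (limma adjusted p = 0.157).

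The promoter windows of CLDN4 and ZEB1 are shown because ZEB1 is known to bind the E-box CACCTG, or CAGGTG on the other strand, and because CLDN4 held the lowered member. The windows are the 250 bases before each annotated start, from RefSeq on GRCh38.p14, with the E-box in capitals. CLDN4 lies at chr7:73830746-73830995 on the + strand, and the ZEB1 windows lie at chr10:31318167-31318416 and chr10:31318966-31319215 on the + strand.
CLDN4: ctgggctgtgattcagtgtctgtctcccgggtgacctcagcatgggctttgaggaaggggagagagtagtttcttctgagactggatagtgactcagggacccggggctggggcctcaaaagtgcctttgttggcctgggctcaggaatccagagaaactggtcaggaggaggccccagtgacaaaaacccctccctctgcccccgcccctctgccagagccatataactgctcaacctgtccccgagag
ZEB1 first window: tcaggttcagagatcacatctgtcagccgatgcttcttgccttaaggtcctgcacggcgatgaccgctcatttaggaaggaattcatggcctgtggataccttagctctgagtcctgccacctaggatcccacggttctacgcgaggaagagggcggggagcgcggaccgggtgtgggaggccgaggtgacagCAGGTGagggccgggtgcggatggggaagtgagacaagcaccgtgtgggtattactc
ZEB1 second window: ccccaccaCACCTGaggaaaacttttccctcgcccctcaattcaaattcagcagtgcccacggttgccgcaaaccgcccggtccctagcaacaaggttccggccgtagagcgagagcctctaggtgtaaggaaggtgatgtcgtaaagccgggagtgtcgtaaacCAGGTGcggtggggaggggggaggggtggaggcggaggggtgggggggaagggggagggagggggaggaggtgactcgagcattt

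The CLDN4 window held no E-box of these letters. The first ZEB1 window held 1, starting 57 bases before the annotated start, and the second held 2, starting 242 and 85 bases before it. In all, 5 of the 10 members had windows in the table, namely KRT8, CLDN4, CDH2, VIM and ZEB1, with 12 windows between them, of which these 2 of the 7 ZEB1 windows held the motif. Of all 35116 windows of the same length, 17.5% held it. The arrays do not measure binding, and a match describes letters only.

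EPCAM, a surface adhesion molecule of epithelia, and CDH1, the cadherin of the epithelial adherens junction, were tested at 1 probe set each. EPCAM probe set 11745652 read 3.67, 4.15, 4.42 and 3.64 with DMSO and 4.06, 4.10, 4.49 and 4.06 with PA. The groups overlapped, with a difference of 0.2075 and a 95% interval of -0.1935 to 0.6085 (limma adjusted p = 0.457). The DMSO mean of this probe set, 3.97, was below the limit of 4, so it was tested only through its PA mean of 4.18. Leaving out 1 array moved the EPCAM difference to 0.1075 (without DMSO 1), 0.0975 (DMSO 4), 0.1033 (PA 3) or 0.3575 (DMSO 3), none of them called. CDH1 probe set 11716905 read 4.00, 3.95, 4.35 and 4.27 with DMSO and 4.26, 3.82, 4.15 and 4.32 with PA. The difference was -0.005, with an interval of -0.2878 to 0.2778 (limma adjusted p = 0.983). The remaining 2 EPCAM probe sets read 3.25 to 4.01 and the remaining CDH1 probe set read 3.60 to 4.11, and these 3 were below the limit and not tested.

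Of the 11 probe sets of the mesenchymal members CDH2, VIM and ZEB1, 0 were called by limma with the signal limit of 4 and all 8 arrays. At an unadjusted p under 0.05 there were 3, among them CDH2 probe set 11726615, which reached the signal limit only with PA. Some other settings called ZEB1 probe set 11721546, and ordinary analysis of variance with q-values also called that CDH2 probe set. VIM, the intermediate filament of mesenchymal cells, read 14.42, 14.38, 14.35 and 14.38 with DMSO and 14.36, 14.37, 14.40 and 14.42 with PA at probe set 11731394. The difference was 0.005, with a 95% interval of -0.0918 to 0.1018, and it took either sign depending on the scaling and the arrays included. The other VIM probe set differed by 0.0225 (limma adjusted p = 0.765).

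CDH2, N-cadherin, had probe sets of opposite sign. Probe set 11726614 read 5.72, 5.42, 5.72 and 5.69 with DMSO and 5.49, 5.54, 5.40 and 5.72 with PA, a difference of -0.10 (limma adjusted p = 0.473) with overlapping groups. Probe set 11726615 read 3.90, 3.83, 3.78 and 3.96 with DMSO and 4.18, 4.05, 4.01 and 3.99 with PA. All PA arrays were above all DMSO arrays there, by 0.19, but its limma adjusted p was 0.0627 and its signal lay at the limit. The DMSO mean of probe set 11726615, 3.87, was below the limit of 4, so it was tested only through its PA mean of 4.06.

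ZEB1, a zinc finger repressor and inducer of the transition, had 7 probe sets, all with a positive difference, from 0.045 to 0.27. Probe sets of 1 gene share its transcripts and are not replicates. Probe set 11721546 read 8.55, 8.53, 8.61 and 8.58 with DMSO and 8.77, 8.83, 8.77 and 8.62 with PA, without overlap. Its difference was 0.18 ± 0.0555 (SE, n = 4 per group; limma adjusted p = 0.054), which missed the threshold. It passed with a signal limit of 5 (adjusted p = 0.0349), after quantile normalization (0.2128, adjusted p = 0.0311), with an intensity trend (adjusted p = 0.0223), by ordinary analysis of variance (q = 0.0306) and without PA 4 (0.2225, adjusted p = 0.0303). The brightest ZEB1 probe set, 11721545, read 9.64, 9.74, 9.60 and 9.58 with DMSO and 9.71, 9.78, 9.68 and 9.63 with PA. These groups overlapped, and the difference was 0.06 (limma adjusted p = 0.489). The dimmest, 11749136, had the widest interval of any member after EPCAM, -0.1016 to 0.6416 around 0.27. DMSO 2 was the highest DMSO array in 5 of the 7 ZEB1 probe sets.

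**Figure D3:**
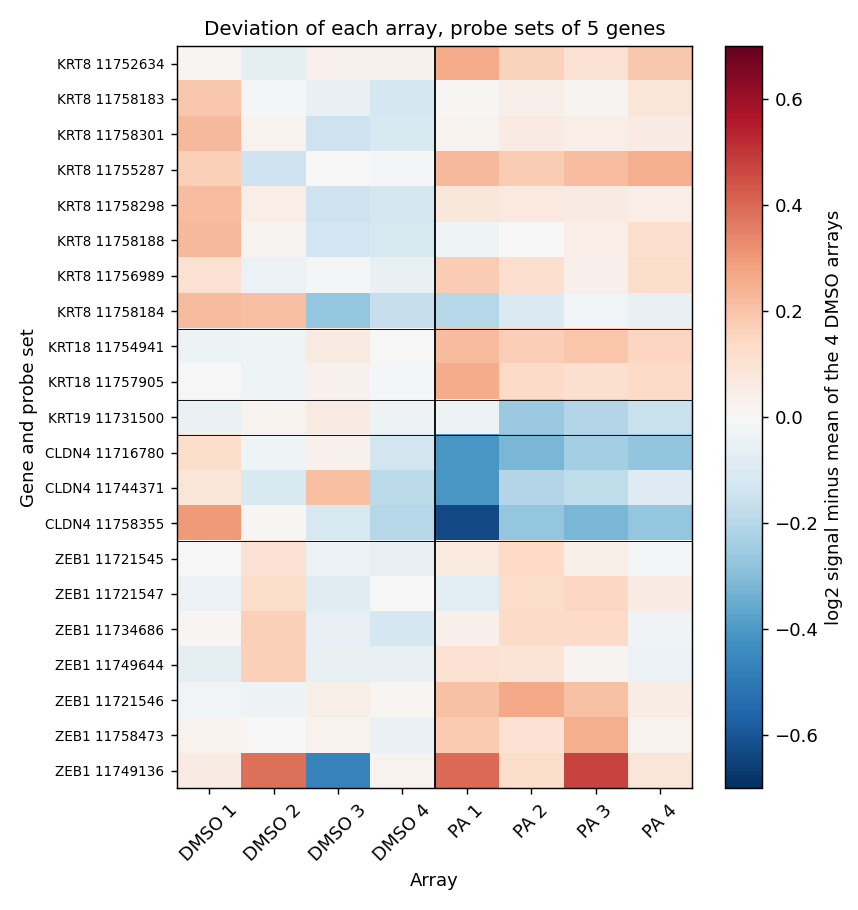
Deviation of each of the 8 arrays from the mean of the 4 DMSO arrays, in log2 signal, for the probe sets of KRT8, KRT18, KRT19, CLDN4 and ZEB1. The KRT18 rows are above 0 and the CLDN4 rows below 0 on all 4 PA arrays, while the KRT8 rows show DMSO 1 above the other DMSO arrays in 7 of 8 probe sets.

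A value of the arrays themselves was also mostly higher with PA, though the groups overlapped. The mean of the 8 background probe sets rich in G and C was 6.70, 6.59, 6.95 and 6.83 on the DMSO arrays and 7.12, 7.02, 6.92 and 7.05 on the PA arrays (6.77 ± 0.155 and 7.03 ± 0.0819, SD, n = 4 each; exact two-sided permutation p = 0.0571). The other background probe sets were also higher with PA, 3.16 ± 0.0105 against 3.09 ± 0.0402 (exact permutation p = 0.0286, the smallest that 4 against 4 arrays allow). When that GC-rich mean entered the model as a covariate, no member was called. The changes of the 3 probe sets called without it were smaller in that fit, and their SEs were larger. CLDN4 probe set 11716780 differed by -0.249 (limma adjusted p = 0.24), KRT18 probe set 11754941 by 0.1267 (adjusted p = 0.34) and KRT8 probe set 11752634 by 0.0782 (adjusted p = 0.596). For CLDN4 the SE went from 0.0649 to 0.100, and the 95% interval was -0.48 to -0.0179. Others grew or turned. ZEB1 probe set 11749136 went from 0.27 to 0.7396, past 1.5-fold, with a 95% interval of 0.3355 to 1.1438 (limma adjusted p = 0.0784), and ZEB1 probe set 11734686 from 0.07 to 0.2414. KRT8 probe set 11758184 went from -0.0925 to 0.2654, CDH1 from -0.005 to -0.30, CDH2 probe set 11726614 from -0.10 to -0.2845 and KRT19 from -0.165 to -0.2347. For CDH1 the 95% interval there was -0.6701 to 0.0702 (limma adjusted p = 0.375). That fit called 606 probe sets in place of 6614, 60.9% of them raised. Because the GC-rich mean was itself mostly higher with PA, the fit cannot tell the background from the treatment. How much of the members' changes went with the background was not tested.

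The neighbouring genes were read from 12 lists, at the brightest probe set of each gene, beside 8.23% of all 15226 genes tested that rose and 10.5% that fell. Of 132 list genes tested, 24 were called. In bulk RNA, fewer cells of a kind and less RNA per cell cannot be told apart. Leaving out 1 array at a time, 13 of the 21 called genes named by rule were called in all 8 fits, and 8 lost the call in at least 1.

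In the list of other junction proteins, 1 of 21 tested genes rose and 5 fell, with a median change of 0.0225 beside 0.015 over all genes. DSP (desmoplakin), which ties keratin filaments to the desmosome, fell by 0.54, from 10.0 ± 0.105 to 9.47 ± 0.0507 (SD, n = 4 each; limma adjusted p = 0.00102), and its second probe set also fell. JUP (plakoglobin), its partner in the junction plaque, fell by 0.54 (limma adjusted p = 0.00129). PKP3 (plakophilin 3) fell by 0.31 at its brightest probe set and DSG2 (desmoglein 2), a desmosomal cadherin, fell by 0.28 (adjusted p = 0.0109 and 0.0165 in limma). The 4 PA arrays of each of these genes lay below the 4 DMSO arrays, and these 4 kept the call when any single array was left out. PKP3 lost it when both of its probe sets were averaged (-0.15, adjusted p = 0.149), since the other one differed by 0.0075. Other desmosomal genes of the list, named after their values were seen, were not called by limma at their brightest probe sets. PKP1 differed by 0.2275 (adjusted p = 0.186), PKP2 by -0.2925 (adjusted p = 0.229) and DSC2 by -0.2775 (adjusted p = 0.108). DSC2 was lowered at 1 of its 4 probe sets, which differed by -0.605 to -0.255. The raised gene was CLDN1, a claudin of the tight junction (0.235, limma adjusted p = 0.0466, raised at 2 of 4 probe sets). The remaining lowered one was CTNNB1 (-0.23, limma adjusted p = 0.0391). It was lowered at 1 of its 8 probe sets, which differed by -0.23 to 0.1725.

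Among 9 other keratins tested, 0 rose and 1 fell, with a median of -0.0625. KRT80, a type II keratin found at desmosomes, fell by 0.47 (limma adjusted p = 0.0013), with DMSO arrays at 7.89 to 8.08 and PA arrays at 7.49 to 7.52. Among 14 other intermediate filament and linker genes, 0 rose and 3 fell, and the median was 0.03. SYNM (synemin), an intermediate filament protein, fell by 0.31 and PLEC (plectin), a linker of filaments to junctions, fell by 0.26 (limma adjusted p = 0.00491 and 0.0072). LMNB1 (lamin B1), of the nuclear lamina, fell by 0.36 (adjusted p = 0.0394), a call lost without any 1 of DMSO 1, 2 and 4 and PA 1 to 4, with adjusted p-values of 0.0621 to 0.0953.

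Epithelial surface and secreted proteins gave 2 raised and 1 lowered of 17, with a median of 0.08. S100P, a calcium-binding protein, rose by 0.40 and TMPRSS4, a membrane serine protease, rose by 0.33 (limma adjusted p = 0.0323 and 0.0427), whereas SPINT2, a protease inhibitor, fell by 0.26 (adjusted p = 0.00805). S100P kept the call in 3 of 8 fits that left out an array and TMPRSS4 in 2, with adjusted p-values up to 0.0821 and 0.109, and TMPRSS4 was raised at 1 of 6 probe sets. S100P read 4.72 to 5.56, below the per-array means of the GC-rich background probe sets (6.59 to 7.12). The G and C content of the probes of the list genes was not examined. TMPRSS4, at 6.66 to 7.26, overlapped those means, and SPINT2, at 9.40 to 9.78, lay above them. Of 13 regulators of epithelial identity, OVOL2 rose by 0.42 and ELF3 fell by 0.50 (limma adjusted p = 0.0296 and 0.0424), around a median of -0.04. OVOL2 is a zinc finger and ELF3 an ETS transcription factor, and each kept its call in 2 of 8 such fits, with adjusted p-values up to 0.0794 and 0.102. OVOL2 read 4.98 to 5.71 and ELF3 read 5.13 to 6.19, both below the per-array means of the GC-rich background.

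Of 7 tested inducers of the epithelial-mesenchymal transition other than ZEB1, FOXC2, a forkhead factor, rose by 0.26 (limma adjusted p = 0.0341) and 0 fell, with a median of 0.07. FOXC2 lay at 4.27 to 4.80 near the signal limit and was called in 2 of 8 fits without an array, with adjusted p-values up to 0.077. TWIST1, TWIST2 and ZEB2 were below the limit in both groups. Of 26 mesenchymal structural and matrix genes, 0 rose and 5 fell, with a median of -0.08. COL1A2, a chain of type I collagen, fell by 0.53 (limma adjusted p = 0.00709) at its brightest probe set and was lowered at 3 of 6. AXL, a receptor tyrosine kinase, fell by 0.28, COL6A1, a chain of type VI collagen, by 0.23 and ACTA2, smooth muscle actin, by 0.23 (limma adjusted p = 0.00565, 0.00933 and 0.0223). AXL and COL6A1 lost the call as means of their probe sets, at -0.0837 (adjusted p = 0.629) and -0.0904 (adjusted p = 0.228). The other AXL probe set differed by 0.11, and COL6A1 was lowered at 2 of 6. ACTA2 kept the call in 3 of 8 fits without an array, with adjusted p-values up to 0.0655. Among 9 other cadherins 0 rose and 2 fell, with a median of 0.02. CELSR2 fell by 0.41 and FAT1 by 0.38 (limma adjusted p = 0.00485 and 0.0287), and FAT1 kept the call in 4 of 8 such fits, with adjusted p-values up to 0.0756.

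**Figure D4:**
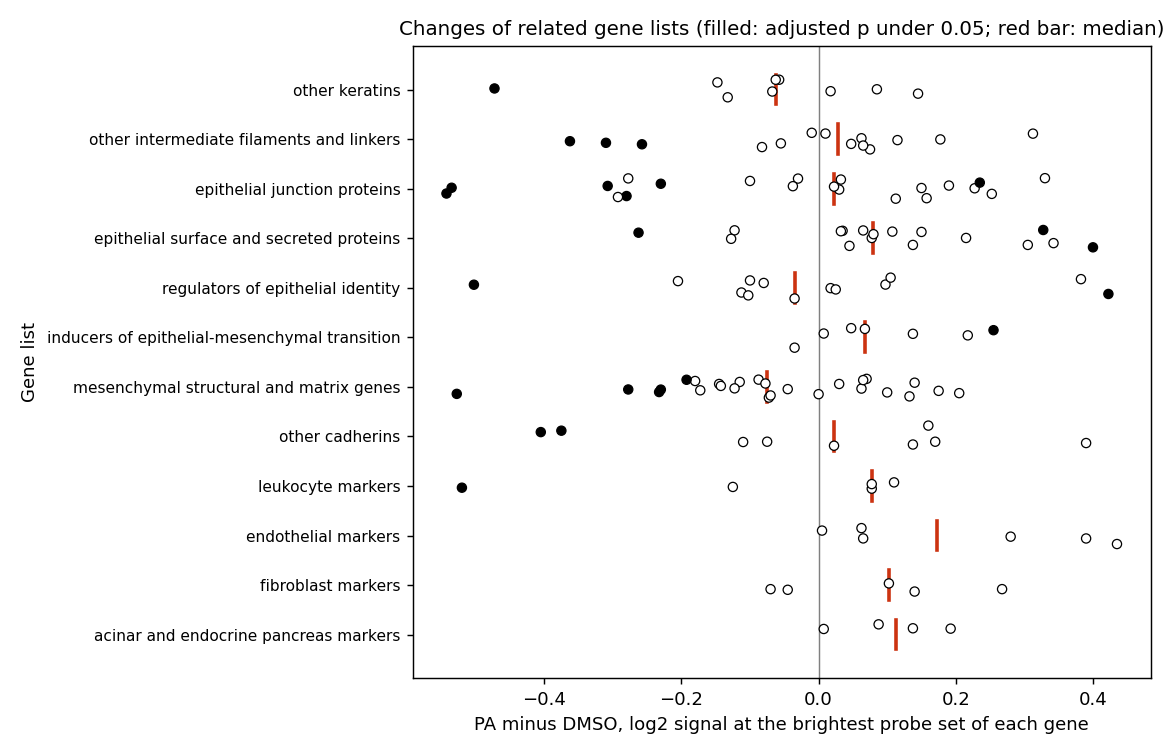
Change of each tested gene of 12 lists, PA minus DMSO in log2 signal at its brightest probe set, with filled points for an adjusted p under 0.05 and red bars for the median of a list. Lowered genes reach -0.54 in the junction list, and list medians lie between -0.075 and 0.1725.

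Markers of other cell types were also read, although all 8 arrays come from a single cell line. Leukocyte markers gave 0 raised and 1 lowered of 5 tested. Summed over the 8 leukocyte markers found on the array, tested or not, log2 signals were 39.4 to 40.4 with DMSO and 39.3 to 39.6 with PA. CD14, a monocyte receptor also known outside leukocytes, fell by 0.52 (limma adjusted p = 0.000574), the only called list gene named by the rule that stayed called with the GC-rich covariate. For some of the others, which lost the call there, the difference was about as large or larger, and for some it was smaller. JUP differed by -0.5264 (limma adjusted p = 0.0515), PKP3 by -0.4051, AXL by -0.3305, SYNM by -0.3467 and PLEC by -0.2523. LMNB1 shrank to -0.0282, FOXC2 to 0.0747, TMPRSS4 to 0.1602, ELF3 to -0.3011, OVOL2 to 0.2871, S100P to 0.2897 and DSP to -0.4209. CD68 was the brightest leukocyte marker, at 8.44 with DMSO and 8.55 with PA. The 6 tested endothelial, 5 fibroblast and 4 acinar and endocrine markers had 0 calls. Sums ran over the 7, 7 and 6 markers of these lists found on the array, tested or not. They were 34.98 to 36.5 and 36.9 to 37.6, 34.9 to 35.4 and 34.8 to 35.9, and 26.4 to 26.9 and 26.8 to 27.3, with DMSO and PA in that order. The brightest were CDH5 (VE-cadherin), at 7.54 and 7.93 (limma adjusted p = 0.0728), COL3A1, at 7.27 and 7.23, and PRSS1, at 6.47 and 6.56. The part of these markers in the changes of the members was not tested.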

How the data were processed

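The 8 arrays (4 DMSO, 4 PA) were grouped by their labels. The authors made the deposited values in Partek from the scanned arrays, as RMA signals on a log2 scale (background correction, then quantile normalization across arrays, then a median polish), rounded to 2 decimals. Labels name GCOS, Partek and RMA without versions, and no genome build was given in the sources used here. Array number limits the precision.

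Symbols came from the platform annotation: 44988 of 49395 probe sets carry 1 symbol, 1832 several and 2473 none, beside 102 controls. The test was limma's (version 3.58.1, R 4.3.3; lmFit, then eBayes), on the 38748 probe sets whose higher group mean was at least 4 and with no covariate, after the script had been tested on simulated data. Benjamini-Hochberg adjustment ran over all tested probe sets, and a call needed an adjusted value under 0.05. For list genes the brightest probe set with 1 symbol was used (15226 genes). Named were all members, up to 4 called genes with the smallest adjusted p per list, and the brightest gene of each list of other cell types. Members and lists were chosen with earlier results of these data known. Alternatives were other signal limits, centring, quantile normalization, an intensity trend, array weights, a replicate block, ordinary analysis of variance with q-values, the mean GC-rich background as covariate, the mean of a gene's probe sets, a 1.5-fold limit and leaving out each array. Exact permutation tests were two-sided. Plots used matplotlib 3.10.9 under Python 3.11.15.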

Additional observations from a re-analysis of the deposited data

Results flagged for a closer look

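In 8 of 104 groups of 4 arrays examined, 1 array stood apart from the other 3 by Dixon's criterion, where chance gives about 5% of groups. KRT18 probe set 11757905 was 13.66 on PA 1 against 13.51 to 13.53 on the other PA arrays. CLDN4 probe set 11758355 was 7.59 on PA 1 against 7.90 to 7.95, and EPCAM probe set 11716887, which was not tested, was 3.72 on PA 1 against 3.40 to 3.45. KRT80 was 7.49 on PA 1, with the other PA arrays all at 7.52, a gap close to the rounding of the values. EPCAM probe set 11745652 was 4.49 on PA 3 against 4.06 to 4.10. On DMSO 2, CDH2 probe set 11726614 was 5.42 against 5.69 to 5.72 and ZEB1 probe set 11749644 was 8.98 against 8.75 to 8.76 on the other DMSO arrays. VIM probe set 11755943 was 14.36 on DMSO 3 against 14.29 to 14.30.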

How the results depend on the processing

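The calls among the members depended on the setting. Against 2 raised and 1 lowered, there were 1 and 1 with no signal limit, 5 and 2 with a limit of 5, 1 and 2 after centring, 5 and 1 after quantile normalization, 5 and 3 with an intensity trend, and 6 and 1 with ordinary analysis of variance and q-values. A replicate block, the GC-rich covariate and the 1.5-fold limit each left 0 and 0. Leaving out each array gave 0 to 2 raised and 1 to 2 lowered. Over all probe sets, 6614 calls became 3588 with the block, 606 with the GC-rich covariate, 439 at 1.5-fold and 4090 to 6555 without an array. The 24 list genes called became 14, 1, 0 and 14 to 25. Calls fell by more than 1.5 times without DMSO 2 (4090) or PA 2 (4169) over all probe sets, and among list genes without DMSO 1 (15), DMSO 2 (15) or PA 1 (14). Deviations of same-numbered DMSO and PA arrays correlated at -0.0147, 0.0527, -0.1527 and -0.0373. The sources do not say whether the replicate numbers pair the arrays, and why the block lowered the calls was not tested. Differences near 0 changed sign. Without 1 array, CDH1 ran from -0.0692 to 0.1008, above 0 without DMSO 3 (0.0642), DMSO 4 (0.0375) or PA 2 (0.1008), and VIM ran from -0.0058 (without DMSO 3 or PA 4) to 0.0175. VIM was -0.0225 after centring, and CDH2 was 0.045 as the mean of its probe sets. The cause of these changes was not tested. Signals near 4 limit what can be read for EPCAM, CDH1 and KRT7, and signals near the top of the scale limit VIM.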
